A study of Homo sapiens with 24 samples.

Results

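The genes described here mark gastric and intestinal differentiation in the human gut: the transcription factors SOX2, CDX2, SOX9, GATA4 and GATA6, the trefoil factors TFF1, TFF2 and TFF3, the membrane mucin MUC1, and VIL1, which encodes villin. They were chosen by gene symbol and not by a rule on measured values, though earlier results of these data were known. They are 10 of the 23368 genes in the count table. They were followed in AGS, an established cell line from a human gastric adenocarcinoma, in 24 RNA sequencing libraries harvested 24 h after treatment. The 6 groups, each of 4 replicates whose number the labels also give as the batch, were a control, PI103 at 0.7 µM, PD0325901 at 0.035 µM, (5Z)-7-oxozeaenol (oxozeaenol) at 0.5 µM, PI103 at 0.35 µM with oxozeaenol at 0.25 µM, and PI103 at 0.35 µM with PD0325901 at 0.0175 µM. PI103 blocks class I PI3 kinases and mTOR, PD0325901 is a MEK inhibitor, and TAK1 is the main target of oxozeaenol, so that the study asks what each inhibitor does alone and at 50% of its concentration in a combination. The labels do not say whether the control cells received vehicle, nor whether replicates came from separate cultures, so p-values measure only the spread between these libraries. All groups come from the same cell line, so the values describe this tumour line and not gastric mucosa.

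SOX2 is a factor of the foregut and stomach, and CDX2 is the factor that sets intestinal identity and is switched on in intestinal metaplasia of the stomach. SOX9 marks progenitors and Paneth cells of the gut, and GATA4 and GATA6 are zinc finger factors of the endoderm that act in both stomach and intestine. Trefoil factors are small secreted peptides stored with mucus: TFF1 belongs to the surface cells of the stomach, TFF2 to its mucous neck cells and TFF3 to the goblet cells of the intestine. MUC1 is a mucin anchored in the apical membrane, and villin bundles actin in the microvilli of the brush border.

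Gene counts per library ranged from 38057638 to 84226380. Levels are CPM, gene counts scaled to a common library size with TMM factors, given as mean ± SD over the 4 libraries of a group, and differences are log2 fold changes from edgeR's quasi-likelihood test with p-values adjusted over all 13947 genes tested. Intervals are 95% intervals from the SE. A gene is called where the adjusted p is under 0.05. The 7 epithelial markers, among them EPCAM and KRT8, summed to between 5075 and 7953 CPM per library. Of the 6 fibroblast markers only COL1A1, and of the 6 leukocyte markers only LYZ and CD68, reached 1 CPM in the mean, and the endothelial markers summed to at most 0.452 CPM. PTPRC and CD3E stayed at or under 0.101 and 0.0178 CPM in every library, while LYZ, which gastric and Paneth cells also express, carried the leukocyte sum from 38.9 to 49.3 CPM in control libraries to between 188 and 468 CPM in treated ones. The fibroblast markers summed to 14.3 to 17.4 CPM in control and 32.3 to 34.4 CPM with PI103, and to 8.18 to 10.0 CPM with oxozeaenol. What part these markers' sources have in the members' values was not tested. DUSP6 and SPRY4, feedback genes of the MEK and ERK pathway, fell with PD0325901 from 132 ± 13.4 to 3.60 ± 1.33 CPM and from 44.0 ± 3.99 to 2.57 ± 0.986 CPM (edgeR adjusted p = 8.88e-12 and 4.58e-11, n = 4 per group). Both were also below control in every library of the other treatments. Control libraries held 115 to 148 CPM of DUSP6 and 39.2 to 48.9 CPM of SPRY4. With oxozeaenol these were 12.8 to 33.4 and 11.4 to 16.9 CPM. With PI103 they were 44.5 to 57.7 and 17.2 to 19.4 CPM, and with PI103 and oxozeaenol 30.4 to 40.3 and 14.7 to 17.9 CPM. With PI103 and PD0325901 they reached at most 5.01 and 3.59 CPM.

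On the scale of CPM per kilobase of exon, SOX9 was the most abundant of the 10 genes in control, with a mean level of 125 over the 4 libraries. VIL1 (26.6), TFF1 (24.9), CDX2 (18.7), GATA4 (18.4) and GATA6 (15.6) followed, and MUC1 and SOX2 stood at 5.04 and 4.32. TFF2 and TFF3 were near the limit of detection at 0.0592 and 0.00922 CPM per kilobase. The order differed between groups: with PI103 and oxozeaenol MUC1 (16.2) stood above TFF1 (9.91), and with oxozeaenol SOX2 (16.9) stood near CDX2 (17.4) on this scale. TFF2 had 0 to 17 counts and TFF3 0 to 40 counts per library. Both passed the filter on low counts only through the groups in which they were high, so they are given as a description, with no test, and counts of called genes below are over the 8 other members.

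Against control, PI103 changed 7 of the 8 members, PD0325901 changed 5, oxozeaenol 6, PI103 with oxozeaenol 6 and PI103 with PD0325901 7. These treatments also changed 51.4%, 58.6%, 51.9%, 55.6% and 64.8% of all genes tested, so a call by itself says little about a member. With PI103, 5 members rose and 2 fell, where 26.2% of all genes rose and 25.2% fell. With PD0325901, 4 rose and 1 fell (28.7% and 29.9% of all genes). With oxozeaenol, 5 rose and 1 fell (25.7% and 26.1%). With PI103 and oxozeaenol, 4 rose and 2 fell (27.7% and 27.9%). With PI103 and PD0325901, 4 rose and 3 fell (32.2% and 32.6%). The median log2 fold change of the 8 members lay between 0.20 and 0.31, beside -0.02 to 0.02 for all genes tested. The treatments share the control libraries, so each is described by its own values. Between treatments, 44.5% of all genes differed between PI103 and PD0325901, 43.1% between PI103 and oxozeaenol and 28.5% between oxozeaenol and PD0325901. The share was 36.8% for PI103 with oxozeaenol against PD0325901, 43.9% for PI103 with PD0325901 against oxozeaenol and 29.9% between the combinations.

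**Figure D1:**
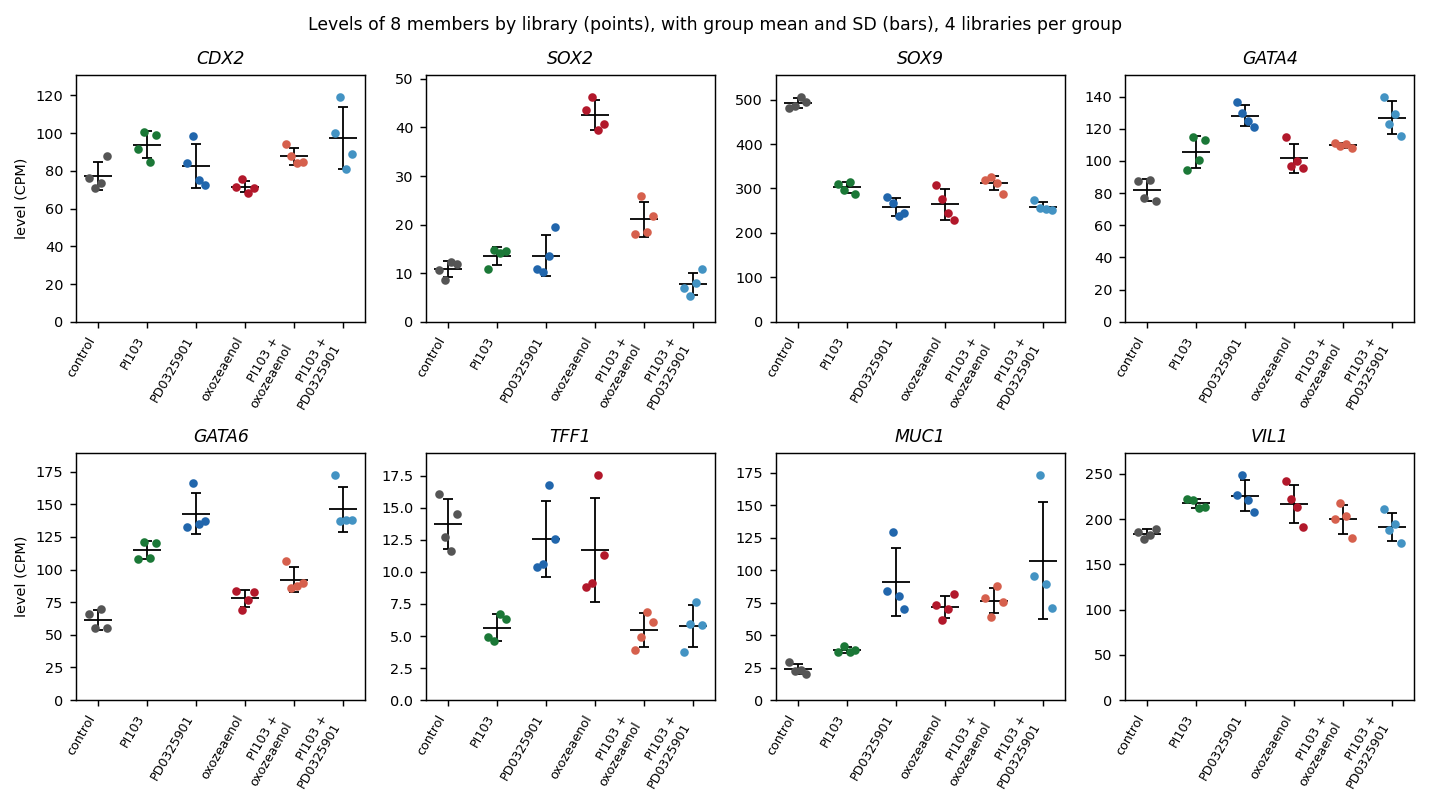
Levels of the 8 more abundant members in CPM (vertical axes, each from 0) in the 6 groups (horizontal axes); points are libraries in the order of their batch, and bars are the group mean and SD of 4 libraries. SOX2 stands at 39.6 to 46.3 CPM with oxozeaenol against 8.64 to 12.3 in control, SOX9 is highest in control, TFF1 is low in the 3 groups that contain PI103, and MUC1 is above control in every treated group.

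SOX2 set the oxozeaenol group apart. The gene lies on chromosome 3 (GRCh38, 181711924 to 181714436, plus strand) in a single exon. Of the 8 members, SOX2 rose most with oxozeaenol. The 249 bases before its start are printed because they were available and clear of annotated exons, not for the response of SOX2. They come from the RefSeq promoter table for GRCh38.p14, chr3:181711675-181711923, plus strand, and capitals mark matches to CCAAT and GGGCGG, here both on the opposite strand.

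SOX2: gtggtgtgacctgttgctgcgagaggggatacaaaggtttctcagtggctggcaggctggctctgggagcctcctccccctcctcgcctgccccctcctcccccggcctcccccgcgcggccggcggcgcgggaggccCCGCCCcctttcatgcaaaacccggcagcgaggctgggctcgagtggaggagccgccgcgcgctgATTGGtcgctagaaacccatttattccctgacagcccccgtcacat

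Positions are counted back from the RefSeq start, which lies 1 base inside the GENCODE 29 gene, so the base next to it is not in the printed window. The CCAAT match lay 47 to 43 bases and the GGGCGG match 112 to 107 bases before that start. Of the 35116 promoters of this length in the table, 32.0% hold CCAAT and 42.6% hold GGGCGG on either strand, so these matches are common and only describe the window. TATAAA (10.7% of promoters), TGANTCA (6.56%), CCGGAA (14.5%) and AGATAA (9.15%), searched in the same way, had no match in it.

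SOX2 measured 10.7, 8.64, 12.3 and 11.8 CPM in the 4 control libraries and 43.7, 46.3, 39.6 and 40.6 CPM with oxozeaenol. All 4 oxozeaenol libraries lay above every library of the 5 other groups. The difference was 1.97 on the log2 scale (SE 0.19, 3.92-fold, adjusted p = 9.31e-09 by edgeR, n = 4 per group). With PI103 and oxozeaenol at their lower concentrations SOX2 measured 18.1, 25.8, 18.5 and 21.9 CPM, 0.95 above control (SE 0.19, edgeR adjusted p = 0.000134) and 1.01 below oxozeaenol alone (log2 difference -1.01, SE 0.18, edgeR adjusted p = 0.00065). It was 0.63 above PI103 alone (SE 0.19, edgeR adjusted p = 0.0189), a call lost without PI103 replicate 1 (0.54, adjusted p = 0.0758) or without replicate 2 of the combination (0.52, adjusted p = 0.0764).

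With either single agent PI103 or PD0325901 SOX2 was not called by the fit of all groups. PI103 gave 10.9, 14.7, 14.2 and 14.6 CPM and PD0325901 gave 10.9, 10.3, 13.6 and 19.6 CPM. Both groups overlapped control, with log2 differences of 0.32 (interval -0.04 to 0.69, edgeR adjusted p = 0.154) and 0.33 (-0.04 to 0.69, edgeR adjusted p = 0.140). The first was called in a fit of only the groups compared (0.33, adjusted p = 0.0374), and the second became 0.46 (adjusted p = 0.0439) without PD0325901 replicate 2. PI103 with PD0325901 gave the lowest group mean of SOX2, with 7.01, 5.38, 8.0 and 10.8 CPM, and its highest library overlapped control and PD0325901. That group lay 0.81 below PD0325901 alone (log2 difference -0.81, SE 0.19, edgeR adjusted p = 0.00497, or 0.0554 in a fit of only the groups compared) and 0.81 below PI103 alone (-0.81, SE 0.19, edgeR adjusted p = 0.00167), with each agent at the lower concentration in it. Against control it fell by 0.48 (SE 0.19, edgeR adjusted p = 0.0292), which was not called without replicate 1 or 2 of the combination (-0.44 and -0.34, adjusted p = 0.0737 and 0.123) or without control replicate 3 or 4 (-0.41 and -0.44, adjusted p = 0.0839 and 0.0701). In the order of group means, oxozeaenol and its combination with PI103 stood above the rest, PI103, PD0325901 and control did not differ between neighbours, and PI103 with PD0325901 came last.

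CDX2, the intestinal counterpart, moved little. The gene lies on chromosome 13 (27962137 to 27971139, minus strand). Control libraries held 76.2, 70.9, 73.8 and 88.1 CPM and PI103 libraries 91.4, 100.5, 84.7 and 99.2 CPM, ranges that overlap. The rise with PI103 was 0.28 (SE 0.10, 1.22-fold, edgeR adjusted p = 0.0253). It was not called without control replicate 2 (0.24, adjusted p = 0.0821), control replicate 3 (0.25, 0.0759), PI103 replicate 2 (0.25, 0.0732) or PI103 replicate 4 (0.26, 0.0672), nor with no filter on low counts (0.26, 0.0516). PI103 with PD0325901 gave 100.01, 119, 81.2 and 88.9 CPM, 0.33 above control (SE 0.10, 1.26-fold, edgeR adjusted p = 0.0068), and without its replicate 2 the difference was 0.22 (adjusted p = 0.0571). The 3 other treatments did not differ from control at this threshold: PD0325901 at 82.6 ± 11.6 CPM (log2 difference 0.10, interval -0.11 to 0.30), oxozeaenol at 71.6 ± 2.99 CPM (-0.11, -0.31 to 0.10) and PI103 with oxozeaenol at 87.8 ± 4.54 CPM (0.19, -0.02 to 0.39). The last of these was called in a fit of only the groups compared (0.20, edgeR adjusted p = 0.0473). Neighbours in the order of the 6 group means did not differ by the test, but its ends did: PI103 and PI103 with PD0325901 lay 0.39 and 0.44 above oxozeaenol, without overlap (SE 0.10, edgeR adjusted p = 0.00375 and 0.00135).

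SOX9 was lower in every treated library than in any control library. The gene lies on chromosome 17 (72121020 to 72126420, plus strand). Control held 481, 486, 506 and 495 CPM, while the 20 treated libraries ran from 228 to 327 CPM. The largest falls were with PD0325901 (-0.93, SE 0.08, 1.91-fold lower, edgeR adjusted p = 5.9e-10), PI103 with PD0325901 (-0.92, SE 0.08, adjusted p = 4.2e-10) and oxozeaenol (-0.90, SE 0.08, adjusted p = 2.28e-09). PI103 (-0.70, SE 0.08, adjusted p = 1.05e-07) and PI103 with oxozeaenol (-0.66, SE 0.08, adjusted p = 2.35e-07) fell less. PI103 stood above PD0325901 (0.23, SE 0.08, edgeR adjusted p = 0.0254), a call lost in 5 of 8 fits that left out 1 library (adjusted p 0.0591 to 0.0827), whereas its difference from oxozeaenol was 0.19 (interval 0.03 to 0.36, adjusted p = 0.0581, or 0.0205 with a replicate block). Each of these 5 falls was present in all 4 batches, the smallest within-batch difference being -0.57.

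**Figure D2:**
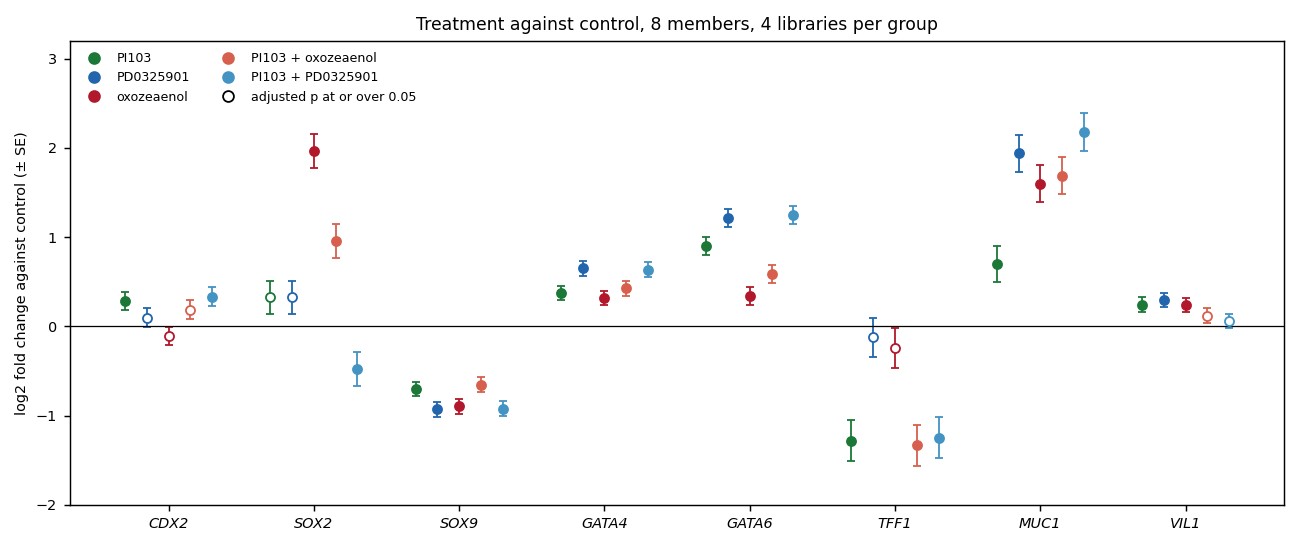
Log2 fold change of each of 8 members (horizontal axis) in each of 5 treatments against control (vertical axis, bars are ± SE, 4 libraries per group); open circles did not pass an adjusted p of 0.05. SOX9 lies between -0.93 and -0.66 in all treatments, GATA4, GATA6 and MUC1 lie above 0 in all, and TFF1 lies near -1.3 in the 3 treatments with PI103 only.

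GATA4 and GATA6 rose in all 5 treatments, GATA6 by more, and both stood highest where PD0325901 was given. GATA4 lies on chromosome 8 (11676959 to 11760002) and GATA6 on chromosome 18 (22169443 to 22202528), both on the plus strand. GATA6 measured 66.1, 54.9, 69.6 and 55.1 CPM in control and 132, 166, 135 and 137 CPM with PD0325901, with no overlap (log2 difference 1.21, SE 0.10, 2.32-fold, edgeR adjusted p = 2.22e-10). PI103 with PD0325901 gave 172, 137, 138 and 138 CPM (1.25, SE 0.10, adjusted p = 7.79e-11), which was not told apart from PD0325901 alone (0.04, interval -0.16 to 0.23). PI103 gave 108 to 121 CPM (0.90, SE 0.10, edgeR adjusted p = 5.49e-08). Oxozeaenol gave the smallest rise, 83.2, 69.0, 76.6 and 82.7 CPM, overlapping control by 1 library (0.34, SE 0.10, edgeR adjusted p = 0.00643). PI103 with oxozeaenol lay between its agents at 92.3 ± 9.54 CPM (0.59 above control, SE 0.10, edgeR adjusted p = 2.32e-05).

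GATA4 rose by less in each treatment. Control libraries held 87.4, 76.7, 87.9 and 74.9 CPM, and PD0325901 libraries 137, 130.1, 125 and 121 CPM (0.65, SE 0.08, 1.57-fold, edgeR adjusted p = 2.33e-07). PI103 with PD0325901 was at 127 ± 10.2 CPM (0.64, SE 0.08, adjusted p = 2.33e-07). PI103 (106 ± 9.82 CPM, 0.37), PI103 with oxozeaenol (109.7 ± 1.59 CPM, 0.42) and oxozeaenol (102 ± 8.98 CPM, 0.32) were not told apart from each other, with edgeR adjusted p from 0.405 to 0.706 between them. All treated libraries lay above all control libraries for GATA4. For GATA6, exons of the antisense transcripts GATA6-AS1 and AC091588.3 lie opposite 6.08% and 8.14% of its exon length in GENCODE 29. The sources used here do not give the strand setting of the counting, so reads of these transcripts cannot be told apart from its own.

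The trefoil factors share a cluster on chromosome 21 (42311667 to 42366594, 54.9 kb, all on the minus strand). TFF1 and TFF3 did not move alike, and TFF2 stayed too close to the floor to show a pattern. TFF1 fell in the groups that contained PI103. Control libraries held 16.1, 12.7, 11.7 and 14.5 CPM. PI103 gave 4.89, 4.63, 6.75 and 6.33 CPM, PI103 with oxozeaenol 3.88, 4.96, 6.89 and 6.12 CPM, and PI103 with PD0325901 3.72, 5.93, 7.68 and 5.86 CPM. None of these 12 libraries overlapped any of the 12 libraries without PI103, whose lowest value was 8.82 CPM. The falls were -1.28 (SE 0.23, 2.43-fold lower, edgeR adjusted p = 5.26e-05), -1.34 (SE 0.23, adjusted p = 2.79e-05) and -1.25 (SE 0.23, adjusted p = 4.18e-05).

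The agents given without PI103 left TFF1 near control. PD0325901 gave 10.4, 10.6, 16.8 and 12.5 CPM (-0.12, interval -0.56 to 0.31, edgeR adjusted p = 0.653) and oxozeaenol gave 8.82, 9.10, 17.5 and 11.3 CPM (-0.24, -0.68 to 0.19, adjusted p = 0.377). Against these, TFF1 with PI103 alone was lower by 1.16 and 1.04 on the log2 scale (log2 differences -1.16 and -1.04, SE 0.23, edgeR adjusted p = 0.000211 and 0.000798). The combinations, which held PI103 at 0.35 µM, lay close to PI103 alone: the differences were -0.05 (interval -0.51 to 0.40) with oxozeaenol and 0.03 (-0.42 to 0.49) with PD0325901. In batch 3 the 2 agents without PI103 stood above control (0.53 and 0.59), while in the 3 other batches they stood below it.

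More TFF3 reads were counted with PD0325901 and with oxozeaenol than in control, at very low counts. The 4 control libraries held 0, 1, 2 and 0 reads and the PI103 libraries 0, 1, 0 and 4. PD0325901 libraries held 9, 33, 27 and 32 reads (0.169 to 0.567 CPM) and oxozeaenol libraries 34, 39, 23 and 40 (0.534 to 0.706 CPM). No library of these 2 groups overlapped control or PI103 alone. With 3 control reads in all, the pooled ratio was 37.5 with PD0325901 (exact 95% interval 12.5 to 185) and 55.7 with oxozeaenol (18.7 to 274), intervals that cover counting error only. Control replicate 3 holds 2 of the 3 control reads, and without it the ratios were 78.7 (13.8 to 3140) and 117 (20.7 to 4661).

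In the combinations the pooled TFF3 reads lay between those of PI103 alone and the other agent. PI103 with oxozeaenol gave 10, 10, 3 and 2 reads, a ratio to control of 9.25 (2.82 to 47.8), or 19.4 (3.18 to 798) without control replicate 3. PI103 with PD0325901 gave 8, 26, 6 and 6 reads, a ratio of 16.2 (5.22 to 81.7), or 34.2 (5.83 to 1378) without control replicate 3, and replicate 2 carried most of it. Without that library the ratio was 9.18 (2.72 to 48.3). These levels, at most 0.706 CPM, are far under those of every other member but TFF2.

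TFF2 stayed close to the floor everywhere, with 15 reads in control (2, 0, 7 and 6), 40 with PI103 (12, 5, 6 and 17), 9 with PD0325901 (2, 2, 4 and 1), 20 with oxozeaenol (5, 7, 2 and 6), 32 with PI103 and oxozeaenol (10, 7, 10 and 5) and 24 with PI103 and PD0325901 (2, 5, 8 and 9). The pooled ratio of PI103 to control was 3.00 (exact 95% interval 1.62 to 5.85, counting error only). It was 2.37 (1.25 to 4.70) for PI103 with oxozeaenol and 1.70 (0.854 to 3.48) for PI103 with PD0325901. For oxozeaenol it was 1.64 (0.798 to 3.44) and for PD0325901 0.668 (0.258 to 1.63). These intervals leave out the spread between libraries and are no test. PI103 libraries ran from 0.0867 to 0.275 CPM and control libraries from 0 to 0.0855, so the groups did not overlap but nearly touched.

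**Figure D3:**
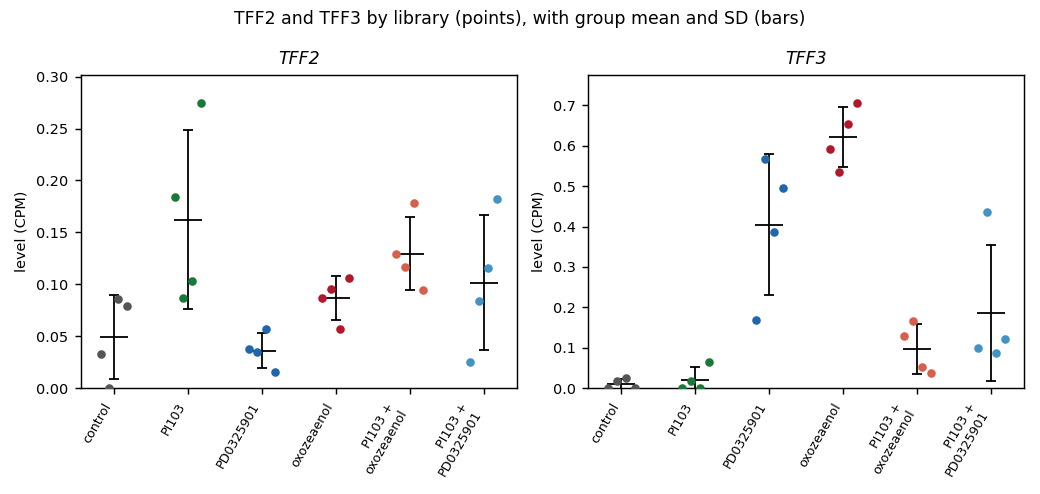
TFF2 and TFF3 levels in CPM (vertical axes, from 0) in the 6 groups (horizontal axes); points are libraries in batch order, bars are mean and SD of 4 libraries. All values are under 1 CPM; TFF3 is at 0.534 to 0.706 CPM with oxozeaenol and at or under 0.0244 CPM in control, and replicate 2 of PI103 with PD0325901 stands at 0.437 CPM.

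MUC1 rose in all 5 treatments and least with PI103 alone. The gene lies on chromosome 1 (155185824 to 155192916, minus strand). The 249 bases before its start, chr1:155192917-155193165 on the minus strand of GRCh38.p14 in the RefSeq table, are printed on the same ground as those of SOX2. Matches to TATAAA and GGGCGG are in capitals.

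MUC1: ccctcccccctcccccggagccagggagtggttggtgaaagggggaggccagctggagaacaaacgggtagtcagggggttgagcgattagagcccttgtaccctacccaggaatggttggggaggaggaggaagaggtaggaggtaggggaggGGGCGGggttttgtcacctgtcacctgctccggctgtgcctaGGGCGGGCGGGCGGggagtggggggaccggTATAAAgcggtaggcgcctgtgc

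Counted back in the same way from the RefSeq start, here too 1 base inside the GENCODE 29 gene, TATAAA lay 24 to 19 bases before it, and GGGCGG matched at 96 to 91 and in an overlapping run at 54 to 49, 50 to 45 and 46 to 41 bases. The other 4 motifs had no match. The SOX2 window shares GGGCGG with it and lacks TATAAA. Promoter entries of 4 of the 10 members were looked at, and 2 are printed. The search may have passed over a member, so 4 need not be the number with an entry.

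MUC1 measured 29.4, 22.7, 22.8 and 20.1 CPM in control and 37.1, 41.9, 37.1 and 38.3 CPM with PI103, which did not overlap (log2 difference 0.70, SE 0.20, 1.63-fold, edgeR adjusted p = 0.00609). It measured 83.9, 129.7, 80.4 and 70.2 CPM with PD0325901 (1.94, SE 0.21, 3.83-fold, adjusted p = 3.4e-08) and 73.6, 61.7, 70.5 and 81.9 CPM with oxozeaenol (1.60, SE 0.21, 3.03-fold, adjusted p = 8.77e-07). Every library of these 2 groups lay above every PI103 library.

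PI103 with oxozeaenol (78.5, 64.3, 87.8 and 75.5 CPM) was not told apart from oxozeaenol alone, the difference being 0.09 (interval -0.31 to 0.48). PI103 with PD0325901 (95.6, 173, 89.3 and 71.2 CPM) was not told apart from PD0325901 alone at 0.24 (interval -0.16 to 0.63). The 4 highest group means did not differ between neighbours (edgeR adjusted p from 0.350 to 0.810), and oxozeaenol was above PI103, and PI103 above control (adjusted p = 0.00106 and 0.00609). PI103 with PD0325901 stood 0.58 above oxozeaenol (edgeR adjusted p = 0.0234), a call lost without replicate 2 of the combination (0.24, adjusted p = 0.246) or oxozeaenol replicate 2 or 3 (0.50 and 0.57, adjusted p = 0.0713 and 0.0515) and with only the groups compared (0.59, 0.0502).

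The highest MUC1 values of the study were in batch 2 of the 2 groups with PD0325901, at 129.7 and 173 CPM. The same 2 libraries had the highest CDX2 (98.4 and 119 CPM) and TFF3 (0.567 and 0.437 CPM) and the lowest SOX2 (10.3 and 5.38 CPM) of their groups. They also had the lowest DUSP6, 1.72 CPM against 3.71 to 4.75 in the other PD0325901 libraries and 1.63 CPM against 4.31 to 5.01 in the other libraries of the combination. SPRY4 was likewise lowest in them, at 1.17 and 0.790 CPM. What part this has in the members' values was not tested. Without these libraries in turn, MUC1 stood 1.75 above control with PD0325901 and 1.85 with PI103 and PD0325901, both still called by edgeR.

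VIL1 rose slightly with each single agent. The gene lies on chromosome 2 (218419092 to 218453295, plus strand). Control libraries held 186, 178, 183 and 189.6 CPM. PI103 gave 223, 221, 213 and 214 CPM (0.24, SE 0.08, 1.18-fold, edgeR adjusted p = 0.0143), PD0325901 227, 248, 221 and 208 CPM (0.30, SE 0.08, 1.23-fold, adjusted p = 0.0027) and oxozeaenol 242, 222, 213 and 192 CPM (0.24, SE 0.08, 1.18-fold, adjusted p = 0.0157). These 3 groups lay above control without overlap, though the call with oxozeaenol was lost without its replicate 1 (0.18, adjusted p = 0.0947), and with no filter on low counts neither PI103 (0.22, 0.0538) nor oxozeaenol (0.20, 0.0798) was called. The combinations overlapped control, at 199.6, 218, 204 and 179 CPM with oxozeaenol (0.12, interval -0.04 to 0.28) and 211, 188, 194 and 173 CPM with PD0325901 (0.06, interval -0.10 to 0.22).

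Exons of USP37 lie opposite 44.0% of VIL1's exon length, and the strand of counting is not stated. USP37 was counted at 24.8 to 37.3 CPM in the group means, well under VIL1, and was lower with PD0325901 (-0.38, edgeR adjusted p = 0.000918) and with PI103 and PD0325901 (-0.25, adjusted p = 0.0210). Its part in the VIL1 values was not tested.

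The combinations were compared with each of their single agents, which were at the full concentration. Against PI103, PI103 with oxozeaenol differed in 3 of 8 members (18.3% of all genes), with SOX2 and MUC1 higher (9.39% of all genes) and GATA6 lower (8.92%). Against oxozeaenol it differed in 3 (14.9%), with SOX9 higher (7.59%) and SOX2 and TFF1 lower (7.28%). Against PI103, PI103 with PD0325901 differed in 5 of 8 (38.7%), with GATA4, GATA6 and MUC1 higher (18.8%) and SOX2 and SOX9 lower (19.9%). Against PD0325901 it differed in 3 (18.1%), with none higher (8.06%) and SOX2, TFF1 and VIL1 lower (10.0%); at an unadjusted p under 0.05, edgeR had CDX2 higher there (0.24, adjusted p = 0.113). Several of these calls are thin. GATA6 in PI103 with oxozeaenol against PI103 (-0.31, edgeR adjusted p = 0.0307) was lost in 5 of 8 fits that left out 1 library (adjusted p 0.0772 to 0.0948). SOX9 in that combination against oxozeaenol (0.24, adjusted p = 0.0482) was lost in 6 of 8 (0.0698 to 0.160), and SOX9 in PI103 with PD0325901 against PI103 (-0.22, adjusted p = 0.0350) in 6 of 8 (0.0541 to 0.0867). VIL1 in PI103 with PD0325901 against PD0325901 (-0.24, adjusted p = 0.0410) was lost in 6 of 8 (0.0693 to 0.132). GATA4 in that combination against PI103 (0.26, adjusted p = 0.0128) was lost without PI103 replicate 1 (0.21, 0.0669) or the combination's replicate 1 (0.21, 0.0566).

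As each agent was at 50% in a combination, each combination was also set against the mean of its 2 agents on the log2 scale. It would lie there if log2 effects grew in proportion to concentration and those of the 2 agents added. A departure does not tell which of these fails. PI103 with PD0325901 departed from that mean in 3 of 8 members (22.0% of all genes), 1 higher (10.8%) and 2 lower (11.1%). MUC1 was higher by 0.86 (SE 0.17, 1.81-fold, edgeR adjusted p = 0.00108, 0.53 without replicate 2 of the combination). SOX2 was lower by 0.81 on the log2 scale (log2 difference -0.81, SE 0.17, edgeR adjusted p = 0.00168). VIL1 was lower, at -0.21 (SE 0.07, adjusted p = 0.0330), a call lost in 7 of 12 fits that left out 1 library (adjusted p 0.0525 to 0.129) and with no filter on low counts (0.0658). TFF1 stood at -0.54 (interval -0.94 to -0.15, edgeR adjusted p = 0.0542) and was called with a replicate block (-0.55, adjusted p = 0.00651), with DESeq2 (0.0236) and without PD0325901 replicate 1 or 2 or the combination's replicate 3 (adjusted p = 0.0467, 0.0393 and 0.0237). GATA6 stood at 0.19 (adjusted p = 0.107) and was called without PD0325901 replicate 2 (0.23, adjusted p = 0.0344).

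PI103 with oxozeaenol departed from the mean in none of the 8 members by edgeR, where 3.98% of all genes did (2.88% higher and 1.1% lower). At an unadjusted p under 0.05 there were 2, TFF1 lower (-0.57, interval -0.97 to -0.18, adjusted p = 0.125) and MUC1 higher (0.54, interval 0.20 to 0.87, adjusted p = 0.0814). DESeq2 called 1, TFF1 (adjusted p = 0.0478), and a fit of only the groups compared called MUC1. TFF1 passed with a replicate block (-0.57, adjusted p = 0.0169) as did MUC1 (0.54, adjusted p = 0.0486). The combinations share the PI103 libraries in this reference.

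**Figure D4:**
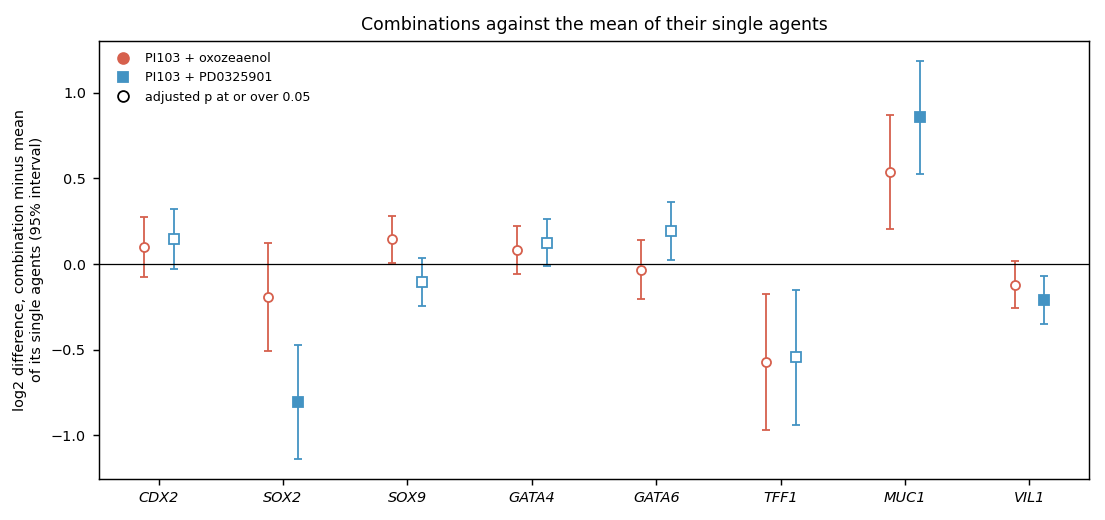
Log2 difference between each combination and the mean of its 2 single agents (vertical axis, bars are 95% intervals) for 8 members (horizontal axis); filled symbols passed an adjusted p of 0.05. MUC1 at 0.86, SOX2 at -0.81 and VIL1 at -0.21 are filled for PI103 with PD0325901, and no symbol is filled for PI103 with oxozeaenol.

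Other genes of gastric and intestinal differentiation were followed in 8 lists with 117 symbols, of which 115 are in the table and 71 were tested. Of these, 30 rose and 15 fell with PI103, 39 and 16 with PD0325901, 33 and 21 with oxozeaenol, 32 and 15 with PI103 and oxozeaenol, and 41 and 20 with PI103 and PD0325901. These make 63.4%, 77.5%, 76.1%, 66.2% and 85.9% of the 71 called, beside the shares of all genes given above. Low genes can reach the test through the groups in which they are high, and with genes under a mean of 1 CPM removed 36, 43, 45, 42 and 50 genes of the lists were called in place of 45, 55, 54, 47 and 61. Fewer list genes are tested under that filter, so these counts are not out of 71 and do not show a smaller share called. The lean to higher levels was steady in the brush border and microvillus list, the neighbours of villin. There 7 to 10 of 13 genes rose and 1 or 2 fell in each treatment. Of all genes tested, 25.7% to 32.2% rose and 25.2% to 32.6% fell in these treatments. The median log2 fold change of the list was 0.72 with PD0325901, 0.43 with oxozeaenol and 0.37 with PI103. PDZK1, a scaffold of brush border transporters, was at 0.0702 ± 0.0702 CPM in control (21 reads in all) and 4.37 ± 3.44 CPM with PD0325901. There replicate 2 held 9.51 CPM and the others 2.21 to 3.06. Like TFF3, PDZK1 passed the filter on low counts through the groups in which it was high, so it is given as a description with no test. EPS8, an actin capping and bundling protein of microvilli, fell from 37.6 ± 2.89 to 16.2 ± 2.49 CPM with PD0325901 and 15.2 ± 2.91 CPM with PI103 and PD0325901 (-1.22 and -1.30, edgeR adjusted p = 5.44e-09 and 1.12e-09).

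In the enterocyte list, with PI103 1 of 8 tested genes rose and 1 fell, where 26.2% of all genes rose and 25.2% fell. In each of the 4 other treatments 4 rose and 2 fell, where 25.7% to 32.2% of all genes rose and 26.1% to 32.6% fell. The 2 falls were thus near the share of all genes. ALPI, intestinal alkaline phosphatase, was at 1.08 ± 0.285 CPM in control, 1.44 ± 0.389 CPM with PI103 (0.42, edgeR adjusted p = 0.239), 10.8 ± 2.93 CPM with PD0325901 (3.33, adjusted p = 6.34e-10) and 5.66 ± 0.954 CPM with oxozeaenol (2.40, adjusted p = 1.76e-07). CEACAM5, an adhesion molecule and tumour marker, fell with oxozeaenol from 5.38 ± 1.33 to 1.28 ± 0.332 CPM (-2.09, edgeR adjusted p = 7.37e-08).

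Among 8 tested goblet and Paneth genes, 4 or 5 rose in each treatment and 1 to 3 fell, where 25.7% to 32.2% of all genes rose and 25.2% to 32.6% fell. With genes under a mean of 1 CPM removed, 2, 3, 3, 4 and 4 goblet and Paneth genes were called in the 5 treatments, in place of 5, 6, 5, 6 and 8. These counts are out of fewer genes than the 8 tested before. PLA2G2A, a secreted phospholipase of Paneth cells, went from 122 ± 5.69 CPM to 1098 ± 140 CPM with PD0325901 (3.17, edgeR adjusted p = 2.22e-14) and to 209 ± 18.9 CPM with PI103 (0.78, adjusted p = 6.39e-05). REG4 fell with PI103 and PD0325901 together, from 16.7 ± 1.69 to 8.78 ± 0.708 CPM (-0.93, edgeR adjusted p = 1.21e-06), while PI103 (0.01) and PD0325901 (-0.14) alone left it uncalled and PI103 with oxozeaenol raised it (0.33, adjusted p = 0.0328). Of the other mucins 4 were tested, of which only MUC13 and MUC20 averaged 1 CPM or more. MUC20, a membrane mucin, rose from 6.61 ± 0.377 to 52.2 ± 15.5 CPM with PI103 and PD0325901 (2.98, edgeR adjusted p = 1.74e-11), and MUC13 fell with PI103 (-0.65, adjusted p = 0.00306) and rose with PD0325901 (0.90, adjusted p = 8.15e-05) and oxozeaenol (0.68, adjusted p = 0.00197).

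Few genes of the gastric glands reached the test. Of 15 genes of the gastric glands, 4 had no count in any library and 2 were tested. PGC, the precursor of a pepsin, rose from 1.49 ± 0.253 to 8.04 ± 3.68 CPM with PD0325901 (2.43, edgeR adjusted p = 3.88e-09) and to 3.95 ± 0.541 CPM with PI103 (1.40, adjusted p = 2.29e-05). In the surface and foveolar list 6 of the 9 in the table were tested, with 0 to 2 higher and 2 or 3 lower. Of all genes tested, 25.7% to 32.2% were higher and 25.2% to 32.6% lower. With genes under a mean of 1 CPM removed, 1 to 3 genes of this list were called, out of fewer genes. S100P, a calcium-binding protein, went from 415 ± 132 to 27.4 ± 6.24 CPM with PI103 and PD0325901 (-3.92, edgeR adjusted p = 7.67e-11) and fell in every treatment, with log2 differences from -3.92 to -2.24. PSCA, a surface antigen, rose with PD0325901 from 0.593 ± 0.109 to 2.55 ± 1.33 CPM (2.11, edgeR adjusted p = 1.05e-05).

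**Figure D5:**
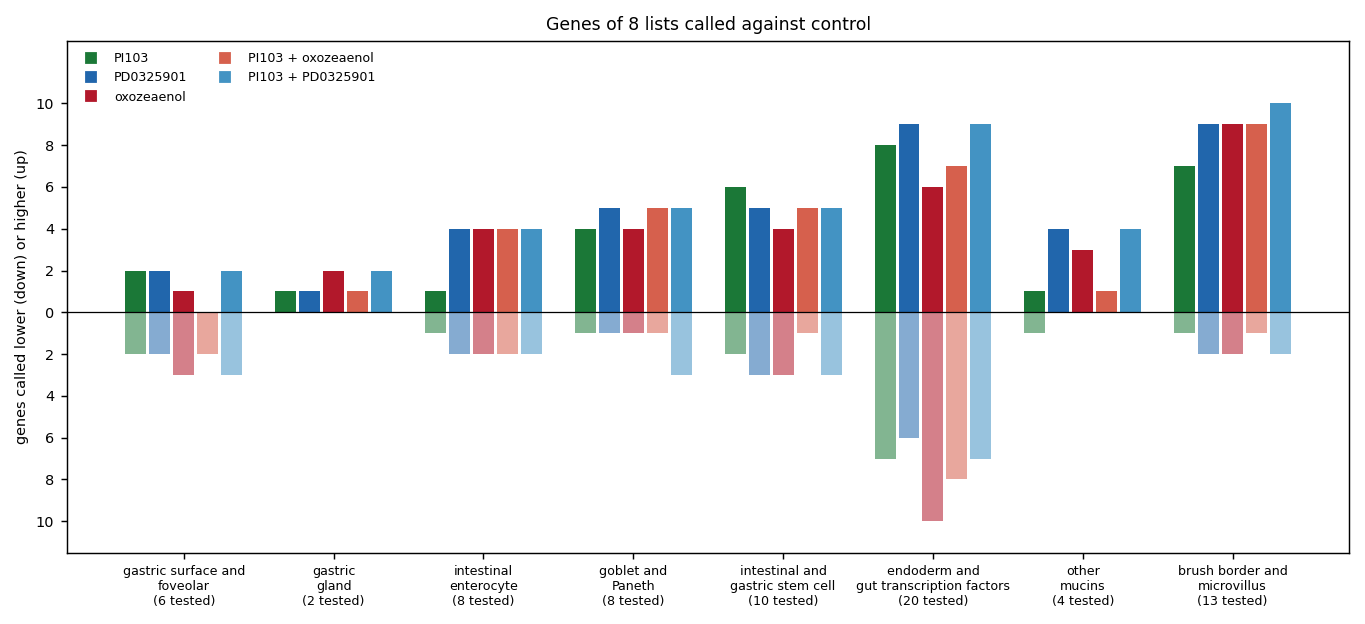
Number of genes called against control in 8 lists (horizontal axis, with the number tested) for 5 treatments; full bars upward are genes called higher and pale bars downward are genes called lower. The brush border list has 7 to 10 higher and 1 or 2 lower of 13, and the transcription factor list 6 to 9 higher and 6 to 10 lower of 20. Of all genes tested, 25.7% to 32.2% were called higher and 25.2% to 32.6% lower.

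Among 20 tested endoderm and gut transcription factors the direction was mixed, with 6 to 9 higher and 6 to 10 lower. Of all genes tested, 25.7% to 32.2% were higher and 25.2% to 32.6% lower. GATA5, a relative of GATA4 and GATA6, rose with PD0325901 from 4.62 ± 0.552 to 29.6 ± 5.76 CPM (2.68, edgeR adjusted p = 1.32e-13) and with PI103 to 10.3 ± 1.23 CPM (1.16, adjusted p = 2.4e-07). SOX21, of the same family group as SOX2, fell from 4.72 ± 0.691 CPM to 0.139 ± 0.0817 CPM with PI103 and PD0325901 (-4.99, edgeR adjusted p = 2.25e-13) and to 0.195 ± 0.0690 CPM with oxozeaenol (-4.57, adjusted p = 1.99e-12), where SOX2 rose. Of the 50-base words of SOX2, 2.03% also occur in other genes, SOX21 among them. Of 10 tested stem cell genes 4 to 6 rose and 1 to 3 fell, beside the same shares of all genes (25.7% to 32.2% and 25.2% to 32.6%). EPHB2, a receptor of crypt cells, rose with oxozeaenol from 9.03 ± 0.660 to 24.6 ± 2.23 CPM (1.44, edgeR adjusted p = 5.32e-12), and ZNRF3, which removes Wnt receptors, fell with PD0325901 from 47.1 ± 2.34 to 22.4 ± 5.11 CPM (-1.07, adjusted p = 8.18e-07).

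The genes whose log2 CPM followed each member most closely over the 24 libraries were found among 10040 genes that reached 5 CPM in the mean. The libraries form 6 groups of 4, so these correlations mostly follow group means and are given as a description. SOX9 was followed by KLF5, also a gut factor, at a Pearson r of 0.98 and by SCAF8 (0.97), MUC1 by GALNT6 (0.98), which starts O-glycans, and CRELD2 (0.97), GATA6 by FAM109A (0.97) and FLJ90757 (0.94), and GATA4 by PDXK (0.95) and DAG1 (0.95). SOX2 was followed by MRPS6 (0.93) and DEM1 (0.90), TFF1 by DPCD (0.91) and PSMC2 (0.91), TFF3 by GDPD3 (0.93) and PCYT2 (0.93), VIL1 by UCP2 (0.85) and TECR (0.84), CDX2 by MGLL (0.84) and LRSAM1 (0.83), and TFF2 by UNK (0.70) and MCM9 (0.68). Of these 20 genes, 4 were also among the closest 2 by Spearman's rho. With its low counts, TFF2 has the weakest matches of the 10, which for sparse counts is no finding. TFF3 held 0 to 2 reads per library in control and 0 to 4 with PI103, so its matches rest on values at the floor and are no finding either.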

How the data were processed

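Per the labels' protocols, each library started from 0.8 µg of total RNA and a kit that keeps strand. The authors deposited whole-number read counts per gene symbol. The submitters' processing notes name GRCh38, while aligner, counting program, annotation and the use of strand are not given in the sources used here. The 5 tallies of unassigned reads entered neither library sizes nor tests. Per library, 4.24% to 8.57% had no feature, 1.57% to 2.01% were ambiguous and 4.64% to 6.06% were not uniquely aligned.

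The deposited counts were filtered by edgeR's filterByExpr, which kept 13947 genes, and scaled by TMM. The model (edgeR 4.0.16, R 4.3.3, robust glmQLFit) used all 24 libraries and a term for each of the 6 groups. Each of 17 contrasts was tested by the two-sided quasi-likelihood F test with Benjamini-Hochberg adjustment over all genes. The SE of a log2 fold change is its size divided by the square root of F. On simulated data for PI103 against control over 13791 genes, 84.8% of 99 genes changed by 1 and 96.0% of 100 genes changed by 2 on the log2 scale were called, with 4 false calls. The simulation changed only these genes, in the PI103 group, with a spread set by level and no batch. In the data 51.4% of genes were called in this comparison, so these rates need not hold there. Ratios for TFF2 and TFF3 pool the reads of a group and carry exact Clopper-Pearson intervals, which cover counting error only.

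The batch in the labels equals the replicate number, so the number pairs the samples by the design. Deviations from group means correlated at a mean r of 0.12 in 60 same-numbered pairs (47 above 0) and -0.04 in 180 others. The fit has no replicate block, which is among the alternatives. These were RLE size factors, DESeq2 1.42.0, no filter, a mean of 1 CPM or more, the block, only the groups compared, and each library left out.

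The members, lists and tests were chosen with earlier results of these data known. Named genes are the 10 members, the 2 closest genes per member (5 CPM or more in the mean), the largest rise and fall per list among called genes that reach 1 CPM in the mean and move one way in all 4 batches, and DUSP6 and SPRY4 as readouts of MEK. The split into 8 members averaging 1 CPM or more and the 2 below it was made after their levels were seen. USP37 is named for its overlap with VIL1, and the markers named singly (COL1A1, LYZ, CD68, PTPRC, CD3E) were picked after their values were seen. MUC5AC and MUC3A were not analysed here. Gene positions are from GENCODE 29 (GRCh38), promoter sequences from RefSeq (GRCh38.p14), cut back where they met an annotated exon.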

Additional observations from a re-analysis of the deposited data

Results flagged for a closer look

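In 60 groups of 4 libraries (10 members in 6 groups) the highest or lowest library was set against the others by Dixon's criterion at 95%, which chance meets in about 1 of 20 groups, and 4 were found. SOX2 was lowest in PI103 replicate 1 at 10.9 CPM, where the 3 others held 14.2 to 14.7 CPM. GATA6 was highest in PD0325901 replicate 2 at 166 CPM against 132 to 137 CPM, and in replicate 1 of PI103 with PD0325901 at 172 CPM against 137 to 138 CPM. TFF3 was highest in replicate 2 of PI103 with PD0325901 at 0.437 CPM against 0.0868 to 0.121 CPM, that is 26 reads against 6 to 8. Without the GATA6 library of the combination the difference of that group from control went from 1.25 to 1.16 and remained called by edgeR.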

How the results depend on the processing

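No result on a member that was called changed direction under any alternative. A replicate block, with the batch as the block, changed 9 calls of the 8 more abundant members, all gained: besides TFF1 and MUC1 given above, these were CDX2 in PI103 with oxozeaenol against oxozeaenol (adjusted p = 0.0200), VIL1 in PI103 with PD0325901 against PI103 (0.0294) and against oxozeaenol (0.0323), SOX9 in PI103 against oxozeaenol (0.0205), VIL1 in PI103 with oxozeaenol against PD0325901 (0.0389) and GATA4 between the combinations (0.0354). It raised the members called in PI103 with oxozeaenol against the mean of its agents from 0 to 2 (1 with DESeq2 or only the groups compared) and all genes called there from 555 to 997 (887 with only the groups compared). With only the groups compared, the members called in PI103 with PD0325901 against PD0325901 went from 3 to 1 and all genes from 2521 to 1222, and all genes in PI103 with oxozeaenol against PI103 from 2553 to 4088. With no filter 9 calls of members were lost, among them CDX2 and VIL1 with PI103 and VIL1 with oxozeaenol. RLE size factors changed no call. A mean of at least 1 CPM removed TFF2 and TFF3 and gained 3 calls by edgeR. These were SOX9 in PI103 against oxozeaenol (adjusted p = 0.0396), and GATA4 (0.0235) and MUC1 (0.0482) between the combinations. Besides TFF1, DESeq2 gained SOX9 in PI103 against oxozeaenol (adjusted p = 0.0418) and GATA4 between the combinations (0.0361). It also gained CDX2 in PI103 with oxozeaenol against oxozeaenol (0.0436). Leaving out 1 library gave 1 to 3 members called in PI103 with oxozeaenol against PI103, the 1 being without replicate 2 of the combination. All genes called ranged from 1050 (without replicate 1 of the combination, 1312 and 1347 without oxozeaenol replicate 3 and replicate 3 of the combination) to 2571 in PI103 with oxozeaenol against oxozeaenol, from 1385 (without PD0325901 replicate 3, 1531 without replicate 1 of the combination) to 3113 in PI103 with PD0325901 against PD0325901, from 232 (without replicate 1 of the combination, 258 and 280 without its replicates 3 and 4) to 781 in PI103 with oxozeaenol against the mean, and from 1466 (without replicate 2 of the combination) to 3977 in PI103 with PD0325901 against the mean. Where no cause is named, the cause was not tested. Depth limits TFF2 and TFF3, with 0 to 40 reads per library.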
